A study of Equus caballus with 2 samples.

Results

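DNA replication genes were examined across all cells of an equine endometrial fibroblast culture with and without transforming growth factor beta 1 (TGF-β1), a cytokine that drives fibroblasts toward matrix production. The genes were taken from a list of 45 symbols for the proteins that license origins, open the helicase, copy DNA, supply nucleotides, rebuild chromatin and guard the fork. Of these, 44 were found by symbol among the 21426 genes of the tables, and E2F1, an activator of the G1/S program, was not found. The list is one of gene functions, and it was chosen with earlier results of these data known.

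Single-cell RNA sequencing was done on 2 libraries, 1 per group. Both held endometrial fibroblasts from 4 mares with a healthy or mildly fibrotic endometrium, grown to the same passage on collagen-coated hydrogels. For 24 h the cells were kept in medium with bovine serum albumin in place of fetal serum, either with no further addition (control) or with 10 ng/ml recombinant TGF-β1, and the mares were pooled within each library. As there was 1 library per group, no difference has a replicate check, the treatment and the library preparation cannot be told apart, and all intervals cover counting error only. A further group of the study, treated with MFGE8, was not analysed here.

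Replication is prepared in G1, when ORC, CDC6 and CDT1 load the MCM helicase on origins, and geminin blocks reloading later on. At the G1/S transition cyclin E with CDK2 and the E2F factors switch on the genes for replication, CDC45 and GINS activate the helicase, and the polymerases follow, held on the template by the PCNA ring. Dividing cells express more of these genes. The level in a whole culture depends on the number of cells in S phase, on the RNA in each and on the level in the other cells.

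Cells with at least 20000 unique molecular identifiers (UMIs, each standing for 1 captured transcript), at least 3500 genes and under 4% mitochondrial UMIs were kept. These were 3865 of 4384 control barcodes and 4513 of 5124 TGF-β1 barcodes, with medians of 50313 and 43142 UMIs per cell, and the libraries shared 6 barcodes, 2 of them among the kept cells. The fibroblast markers were present in both libraries (21449 and 21691 counts per 1000000 UMIs, CPM, summed over 7 genes). Within this sum VIM (4399 and 2240 CPM), PDGFRB and DCN were lower in TGF-β1 cells, and COL1A1, COL1A2, COL3A1 and LUM were higher. Markers of other cell types were uneven in the control and TGF-β1 libraries. PTPRC (leukocytes) had 1 and 0 UMIs, EPCAM (epithelium) 1 and 3 and CDH5 (endothelium) 3 and 2, but others on these lists were not near 0. Epithelial markers summed to 115 and 5.27 CPM, of which KRT8 alone gave 114 and 4.48 CPM. The 5 pericyte or smooth muscle markers summed to 747 and 658 CPM, of which DES alone gave 646 and 569 CPM. The endothelial list summed to 1.34 and 1.38 CPM and the immune list to 42.7 and 43.1 CPM. CD68 gave nearly all of the immune sum (42.6 and 43.1 CPM) and was seen in 56.6% and 56.7% of cells at a depth of 20000 UMIs. The part of any of these lists in the values below was not tested.

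The replication genes as a whole stood at nearly the same level in both libraries. Their UMIs numbered 84960 in control and 87586 in TGF-β1 cells, which is 404 and 399 CPM and a log2 ratio of -0.02 (95% exact binomial interval -0.03 to -0.0044). For the 42 genes that averaged 1 CPM or more over the libraries, the median log2 ratio (TGF-β1 over control throughout) was -0.02, against -0.01 for all 12116 genes at that level. Single genes moved in both directions, with 20 above and 22 below 0, where 48.7% of all genes were above 0. The counting interval lay above 0 for 16, below 0 for 17 and across 0 for 9. The share of all genes with an interval clear of 0 was not counted. A limit of 1.5-fold was used to call a gene changed. MCM10 alone passed it upward, against 7.64% of all genes, and TYMS and CDC45 passed it downward, against 9.36% of all genes. MCM10 was within the limit when both libraries were given the same shares of cells by mitosis genes (log2 ratio 0.51), and CDC45 was within it with the mean of per-cell CPM (-0.55), where DTL (0.74) and RRM2 (0.62) were past it. The replication genes held 2.38% and 4.76% past the limit, below the background in both directions. These shares rest on 1 and 2 genes (3 and 1 with the mean of per-cell CPM), and the difference from the background was not tested.

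**Figure D1:**
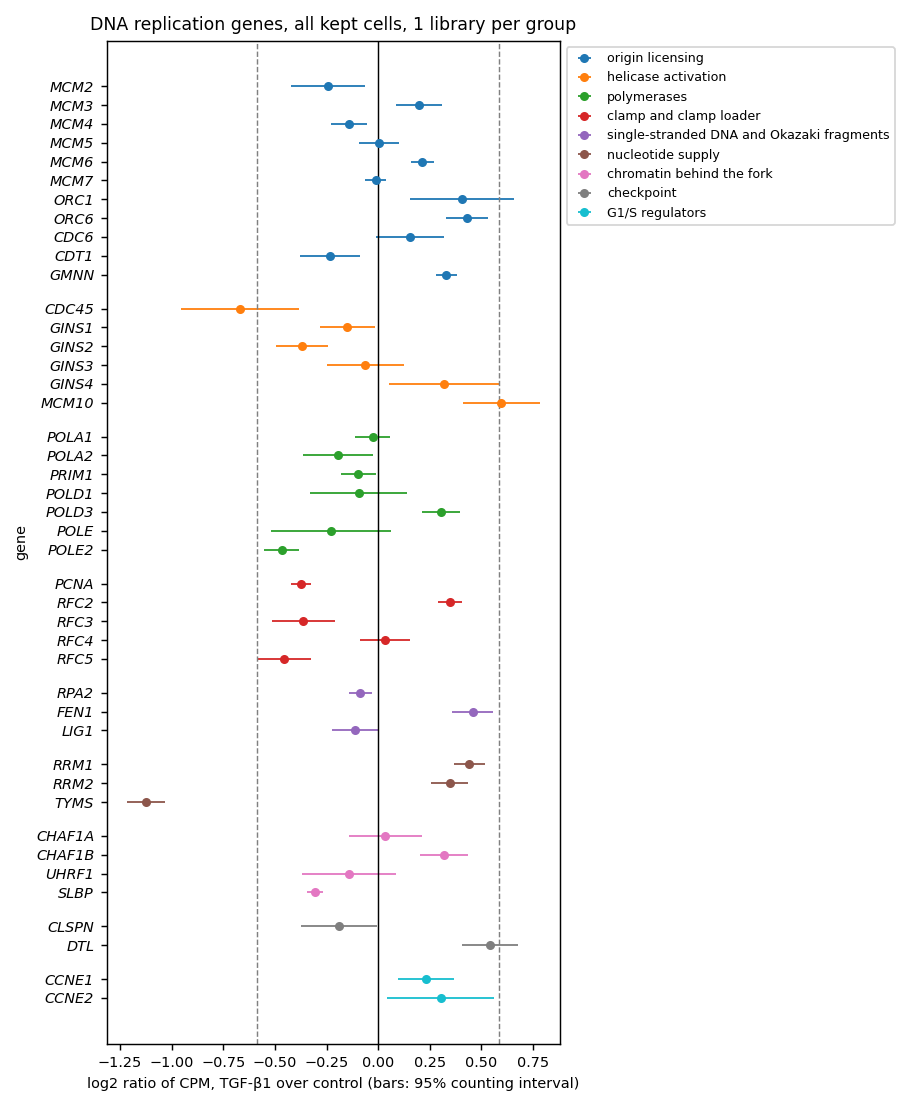
Log2 ratio of CPM (TGF-β1 over control, horizontal axis) for each replication gene, coloured by function, with bars for the 95% counting interval and dashed lines at 1.5-fold. MCM10 sits at 0.59 on the right, TYMS at -1.12 and CDC45 at -0.67 on the left, and the other genes lie between the dashed lines.

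Levels were low for most of these genes. In control cells 20 of the 44 were under 5 CPM and 6 above 20 CPM, and in TGF-β1 cells 21 and 7. After each cell had been thinned to 20000 UMIs, so that both libraries were read at 1 depth, 17 genes in control and 16 in TGF-β1 were detected in under 5% of cells. In this 3′ method the count does not scale with transcript length, and capture may differ between genes, so the values below are compared between libraries and not between genes.

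**Figure D2:**
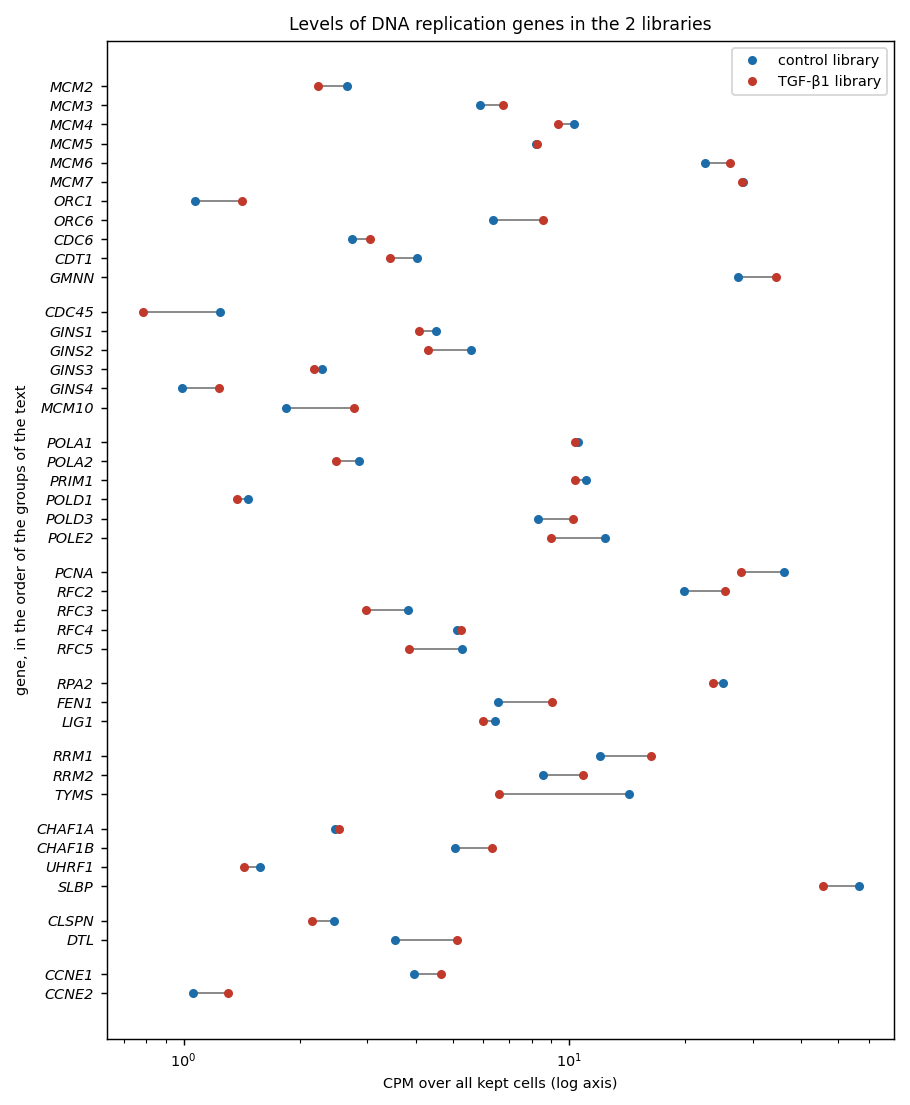
Level of each replication gene averaging 1 CPM or more in the control (blue) and TGF-β1 (red) library, in CPM over all kept cells on a log axis, joined by a line. The lines run in both directions within most functional groups, and the longest is that of TYMS, from 14.3 to 6.58 CPM.

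Origin licensing genes leaned toward higher values after TGF-β1, with a median log2 ratio of 0.15 over 11 genes, 7 above and 4 below 0, and none past 1.5-fold. ORC6, a subunit of the origin recognition complex, was at 6.37 CPM in control and 8.56 CPM in TGF-β1 cells, a log2 ratio of 0.43 (0.33 to 0.53). Its UMIs were detected in 10.8% of thinned control cells and 15.05% of TGF-β1 cells. ORC1, the largest ORC subunit, was at 1.07 and 1.42 CPM (log2 ratio 0.40, 0.15 to 0.66). Geminin (GMNN), the inhibitor of CDT1, was at 27.4 and 34.5 CPM (0.33, 0.28 to 0.38), while CDT1 itself was at 4.03 and 3.43 CPM (-0.23, -0.38 to -0.09). The inhibitor and its target therefore differed in opposite directions, both within the 1.5-fold limit. CDC6, the loader that acts with CDT1, was at 2.74 and 3.05 CPM, with an interval across 0.

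The MCM2 to MCM7 proteins form 1 ring, yet their transcripts did not share a direction. MCM2 was at 2.65 CPM in control and 2.24 CPM in TGF-β1 cells, a log2 ratio of -0.24 (-0.42 to -0.07), and was detected in 4.09% and 3.66% of thinned cells. MCM3 (0.20) and MCM6 (0.21) were higher, MCM4 (-0.14) was lower, and MCM5 (0.0033) and MCM7 (-0.01) had intervals across 0. The span of the ring subunits, -0.24 to 0.21, lay well inside the limit used for a call.

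Helicase activation held the widest split of any group apart from nucleotide supply. MCM10, which helps the loaded helicase to start, was at 1.84 CPM in control and 2.78 CPM in TGF-β1 cells, a 1.51-fold rise (log2 ratio 0.59, 0.41 to 0.78), and was detected in 2.20% and 4.30% of thinned cells. CDC45, which joins MCM and GINS in the active helicase, fell from 1.24 to 0.783 CPM (262 and 172 UMIs, 1.59-fold lower, log2 ratio -0.67, -0.96 to -0.39). Both intervals reach inside the 1.5-fold limit, and both genes are near the lower end of the levels described. Of the GINS subunits, GINS2 was at 5.55 and 4.30 CPM (-0.37), GINS1 at -0.15, GINS3 at -0.06 with an interval across 0, and GINS4 at 0.32. The median over the 6 genes was -0.11.

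Replicative polymerases of the set leaned lower, with 5 of the 6 genes above 1 CPM below 0, a median of -0.10 and none past 1.5-fold. The 3 polymerase genes of the wider list described below leaned the other way, with a median of 0.28. Among these, PRIM2 (0.33) and POLE4 (0.28) were higher and POLD2 (-0.24) was lower. POLE2, the accessory subunit of the leading-strand polymerase epsilon, was at 12.4 CPM in control and 8.98 CPM in TGF-β1 cells, a log2 ratio of -0.47 (-0.55 to -0.38), and was detected in 21.4% and 16.0% of thinned cells. The catalytic subunit POLE was under the 1 CPM minimum, at 1.00 and 0.856 CPM. POLA1, the catalytic subunit of the primase polymerase, was at 10.6 and 10.4 CPM, a log2 ratio of -0.03 (-0.11 to 0.06), and was detected in 15.6% of thinned cells in both libraries. Its partners POLA2 and PRIM1 were at -0.20 and -0.10, POLD1 was at -0.10 with an interval across 0, and POLD3, a small subunit of the lagging-strand polymerase delta, was the exception at 0.30.

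The sliding clamp and its loader had a median of -0.36 over 5 genes, with none past 1.5-fold, and of 0.034 when the minimum level was 5 CPM. PCNA, the ring that holds polymerases on DNA, was at 36.2 CPM in control and 27.9 CPM in TGF-β1 cells, a log2 ratio of -0.37 (-0.42 to -0.33), and was detected in 40.2% and 35.8% of thinned cells. RFC5, a subunit of the complex that opens and loads the ring, was at 5.28 and 3.85 CPM (-0.46, -0.59 to -0.33), with 9.24% and 7.11% of thinned cells. RFC3 was likewise lower (-0.36), whereas RFC2, a subunit of the same loader, was higher, at 19.9 and 25.3 CPM (0.35, 0.29 to 0.40), and RFC4 was at 0.03 with an interval across 0.

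For single-stranded DNA and Okazaki fragments the 3 genes gave a median of -0.09. RPA2, a subunit of the protein that coats single strands, was at 25.1 CPM in control and 23.6 CPM in TGF-β1 cells, a log2 ratio of -0.09 (-0.14 to -0.03), and was detected in 37.2% and 36.2% of thinned cells. FEN1, the nuclease that trims the flap of an Okazaki fragment, was at 6.56 and 9.01 CPM (0.46, 0.36 to 0.56), with 10.3% and 15.3% of thinned cells. LIG1, the ligase that seals the trimmed nick, was at 6.45 and 5.97 CPM (-0.11), so the enzymes of successive steps differed in sign.

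Nucleotide supply carried the largest change among the 42 genes. TYMS, which makes thymidylate, fell from 14.3 CPM in control to 6.58 CPM in TGF-β1 cells (3018 and 1446 UMIs), 2.18-fold, a log2 ratio of -1.12 (-1.21 to -1.03). It was detected in 18.0% of thinned control cells and 9.51% of thinned TGF-β1 cells. The ribonucleotide reductase genes, whose enzyme makes all deoxyribonucleotides, were on the other side of 0. RRM1, its large subunit, was at 12.0 and 16.3 CPM (0.44, 0.37 to 0.52), with 17.7% and 25.1% of thinned cells, and RRM2, its small subunit in cycling cells, at 8.55 and 10.9 CPM (0.35, 0.26 to 0.43), with 5.98% and 11.9% of thinned cells. The share of cells with an RRM2 UMI thus differed more than its CPM did.

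Of the genes for chromatin behind the fork, CHAF1A, the large subunit of the histone chaperone CAF-1, was at 2.47 CPM in control and 2.53 CPM in TGF-β1 cells, a log2 ratio of 0.03 (-0.14 to 0.21), and was detected in 3.62% and 3.74% of thinned cells. Its partner CHAF1B was at 5.07 and 6.32 CPM (0.32). SLBP, which binds the stem-loop of histone mRNAs, was at 56.4 and 45.6 CPM (-0.31, -0.35 to -0.27), and UHRF1, which brings DNA methylation to the new strand, was at -0.14 with an interval across 0.

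The checkpoint genes differed in opposite directions in summed counts, while with the mean of per-cell CPM the ratio of CLSPN was 0.07. CLSPN (claspin), which passes the signal of a stalled fork from ATR to CHEK1, was at 2.46 CPM in control and 2.16 CPM in TGF-β1 cells, a log2 ratio of -0.19 (-0.37 to -0.0075), and was detected in 1.97% and 2.33% of thinned cells. DTL, the adaptor that marks CDT1 for destruction in S phase, was at 3.53 and 5.13 CPM (0.54, 0.41 to 0.68), with 3.60% and 5.69% of thinned cells. The interval of DTL crossed the 1.5-fold limit, and its value stood just inside it.

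The G1/S regulators above 1 CPM were the cyclins E. CCNE1 was at 3.96 and 4.65 CPM (0.23, 0.10 to 0.36) and CCNE2 at 1.06 and 1.31 CPM (0.30, 0.04 to 0.56). E2F8, a repressor of the program late in S phase, had 1 UMI in control and 3 in TGF-β1 cells, too few for a ratio.

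Another 64 replication genes outside the set served as a wider list, of which 59 were found and 50 reached 1 CPM. Their median was 0.01, with 26 above and 24 below 0, and 4 passed 1.5-fold in each direction, against the backgrounds of 7.64% and 9.36% given above. In nucleotide supply, the salvage kinase TK1, which makes thymidylate from thymidine, fell from 18.2 to 9.22 CPM (-0.98, -1.06 to -0.90), beside the fall of TYMS. SAMHD1, which breaks deoxyribonucleotides down, rose from 11.5 to 19.1 CPM (0.73, 0.66 to 0.80). RNASEH2A, the catalytic subunit of the enzyme that removes ribonucleotides from DNA, fell from 3.25 to 1.61 CPM (-1.01). TIPIN, a fork protection factor, rose from 12.1 to 20.6 CPM (0.76). At the G1/S switch, CCND1 (cyclin D1) rose from 78.9 to 177 CPM (1.16) and RB1, the retinoblastoma protein that holds E2F in check, fell from 116 to 59.9 CPM (-0.96).

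A list of 28 mitosis genes was read beside the replication genes, since dividing cells carry both. Of these, 26 were found, all above 1 CPM, with a median log2 ratio of -0.57. Their summed UMIs were slightly higher after TGF-β1, 302 CPM in control and 318 CPM in TGF-β1 cells (log2 ratio 0.08, 0.06 to 0.09), with NUSAP1 at 140 and 192 CPM (0.45) and AURKA at 16.1 and 24.2 CPM (0.58). In that list 23 were below 0 and 12 of the 26 fell past 1.5-fold, against 9.36% of all genes, among them CDC20 (4.57 to 1.77 CPM), CDK1 (6.77 to 2.89 CPM) and TOP2A (13.2 to 8.25 CPM). For the replication genes the median and the ratio of the sums were both -0.02.

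The replication gene UMIs were spread unevenly over cells. After thinning to 20000 UMIs a cell had a median of 6 replication gene UMIs from 5 genes in both libraries, and the 99th percentile was 53.7 UMIs in control and 47.0 in TGF-β1 cells. At least 20 such UMIs were found in 126 control cells (3.26%, exact interval 2.72 to 3.87) and 159 TGF-β1 cells (3.52%, 3.00 to 4.10). At least 60 were found in 32 control cells (0.828%, 0.567 to 1.17) and 24 TGF-β1 cells (0.532%, 0.341 to 0.790), and the intervals overlap at both counts. No cell type that should lack these genes was present, so the level given by free RNA was not measured.

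**Figure D3:**
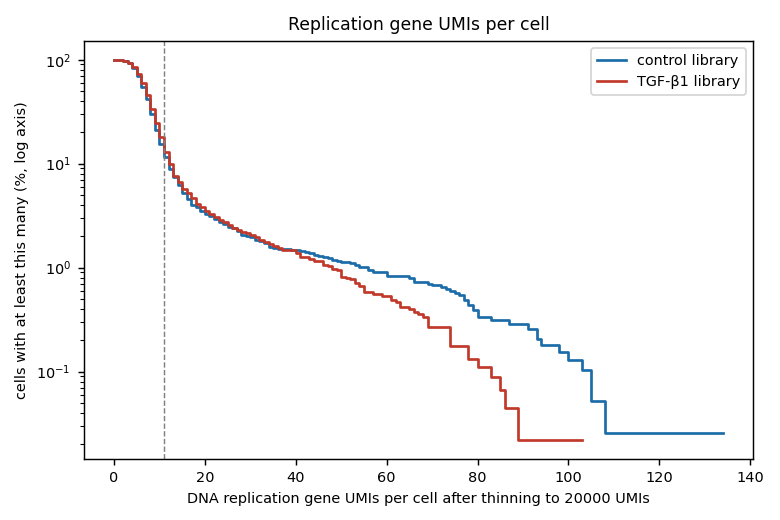
Share of cells (percent, log axis) with at least a given number of replication gene UMIs after thinning to 20000 UMIs per cell, for the control (blue) and TGF-β1 (red) library, with the limit of 11 UMIs dashed. The curves run close together up to about 40 UMIs (57 control and 62 TGF-β1 cells at or above), beyond which the control curve lies higher and reaches 134 UMIs against 103.

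Cells were also divided by how many mitosis genes they showed at the thinned depth. With the 26 mitosis genes found, 3.52% of control and 1.04% of TGF-β1 cells had none, since NUSAP1 was seen in 90.5% and 96.8% of cells, and the median log2 ratio over 42 replication genes was 0.22 in cells with 1 to 2 and -0.21 in cells with at least 3. In the 136 control and 47 TGF-β1 cells with 0, only 28 of the genes had over 3 UMIs in each library, and their median was 0.03. Among those without a ratio there were genes low in TGF-β1, such as RFC5 with 36 and 3 UMIs. A restricted list, made after seeing this, held the 22 genes detected in under 10% of cells and left out NUSAP1, AURKA, UBE2C and PRC1. By it 153 control cells (3.96%, 3.37 to 4.62) and 165 TGF-β1 cells (3.66%, 3.13 to 4.25) showed at least 3 genes, and 2259 and 2901 cells showed 0. These are ranges and not cell types, and 340 control and 330 TGF-β1 cells had 2 or 3 genes, next to the limit. The dividing genes were themselves mostly lower after TGF-β1, at 1642 CPM in control and 992 CPM in TGF-β1 cells of the upper range, and cells with 0 made up 58.4% and 64.3%. Cells of 1 cycle stage may therefore fall in different ranges in the 2 libraries, and the part of this in the ratios by range was not tested. The replication genes together stood at 1784 CPM in control and 1456 CPM in TGF-β1 cells of the upper range, and at 318 and 328 CPM in cells with 0. The upper range held a median of 27.0% of a gene's UMIs in control and 20.4% in TGF-β1, so for most genes the larger part lay in other cells. It held 4.95% and 4.64% of all UMIs.

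In cells with at least 3 restricted mitosis genes the replication genes were mostly lower after TGF-β1. The median log2 ratio was -0.26, with 34 of 42 below 0, against -0.05 for all genes and -0.20 for the wider list of replication genes. It was -0.11 with the mean of per-cell CPM and -0.50 with cells thinned to 10000 UMIs. None rose past 1.5-fold (background 8.29%), and TYMS, CDC45 and RFC5 fell past it (7.14%, against a background of 12.1%). These shares rest on few genes, and their difference from the background was not tested. The interval lay below 0 for 21 of the 42. In the wider list 35 of 50 were below 0, with the interval below 0 for 20. The shares of all genes below 0, or with an interval below 0, were not counted by range. In the same cells the 22 mitosis genes were all lower, with a median of -0.68, but they chose the cells, and this value is a description. PCNA was at 162 and 114 CPM there (-0.51, -0.62 to -0.40), LIG1 at 34.0 and 23.4 CPM (-0.54) and SLBP at 122 and 84.2 CPM (-0.54). DTL was one of the 8 above 0, at 34.8 and 41.8 CPM (0.26, 0.06 to 0.47).

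In cells with none of the restricted mitosis genes the balance was the other way. The median log2 ratio was 0.26, with 26 of 42 above 0, against -0.01 for all genes and 0.01 for the wider list of replication genes (26 of 50 above 0). With another seed for the thinning it was 0.15. RRM2, MCM10, DTL, ORC1 and FEN1 rose past 1.5-fold (11.9%, against a background of 8.01%), and TYMS alone fell past it (2.38%, against 9.24%). In the cells with 1 to 2 genes the median was 0.17, and 0.36 with the other seed, so these 2 ranges have no fixed order. For 38 of 42 genes the ratio was higher in cells with 0 than in cells with at least 3, the exceptions being MCM2, GINS3, POLE2 and RFC3. Of the 42, 19 were above 0 in the former and below 0 in the latter, 15 were below 0 in both and 7 above 0 in both.

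RRM2 showed the widest contrast between the ranges. Its level was 2.02 CPM in control and 5.53 CPM in TGF-β1 cells with 0 genes (242 and 762 UMIs, log2 ratio 1.46, 1.24 to 1.67), and 3.29 and 9.08 CPM in cells with 1 to 2 (1.47). In cells with at least 3 it was 124 CPM in control and 95.6 CPM in TGF-β1 cells (-0.38, -0.50 to -0.26). Cells of the upper range held 71.9% of the RRM2 UMIs in control and 40.8% in TGF-β1. The value over all cells, 0.35, joins these ranges of opposite sign.

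The same opposite signs, with both intervals clear of 0, were seen for MCM5, MCM6, CDC6, POLD3 and RFC4 besides RRM2. MCM5, whose value over all cells was 0.0033, was at 2.80 and 3.90 CPM in cells with 0 (0.48, 0.28 to 0.68) and at 88.3 and 70.6 CPM in cells with at least 3 (-0.32, -0.47 to -0.18). CDC6 was at 1.52 and 2.09 CPM in the former (0.46) and at 22.3 and 16.9 CPM in the latter (-0.40). POLD3 was at 6.94 and 9.56 CPM (0.46) and at 29.8 and 22.6 CPM (-0.40). Licensing genes gave group medians of 0.36 and -0.18 in these ranges, and polymerases of -0.04 and -0.30.

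TYMS differed from this pattern and fell in each range. It was at 11.5 and 5.52 CPM in cells with 0 (-1.06, -1.19 to -0.93), at 12.0 and 5.43 CPM in cells with 1 to 2 (-1.15) and at 65.0 and 29.0 CPM in cells with at least 3 (-1.16, -1.37 to -0.97). PCNA, RFC5, POLE2 and SLBP were likewise below 0 in all 3 ranges, within 1.5-fold except for RFC5 in the upper range (-0.65). CDC45 had only 9 and 13 UMIs in cells with 0, and 89.7% of its control UMIs and 83.1% of its TGF-β1 UMIs lay in the upper range, where it fell from 22.6 to 14.0 CPM (-0.69, -0.998 to -0.38).

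**Figure D4:**
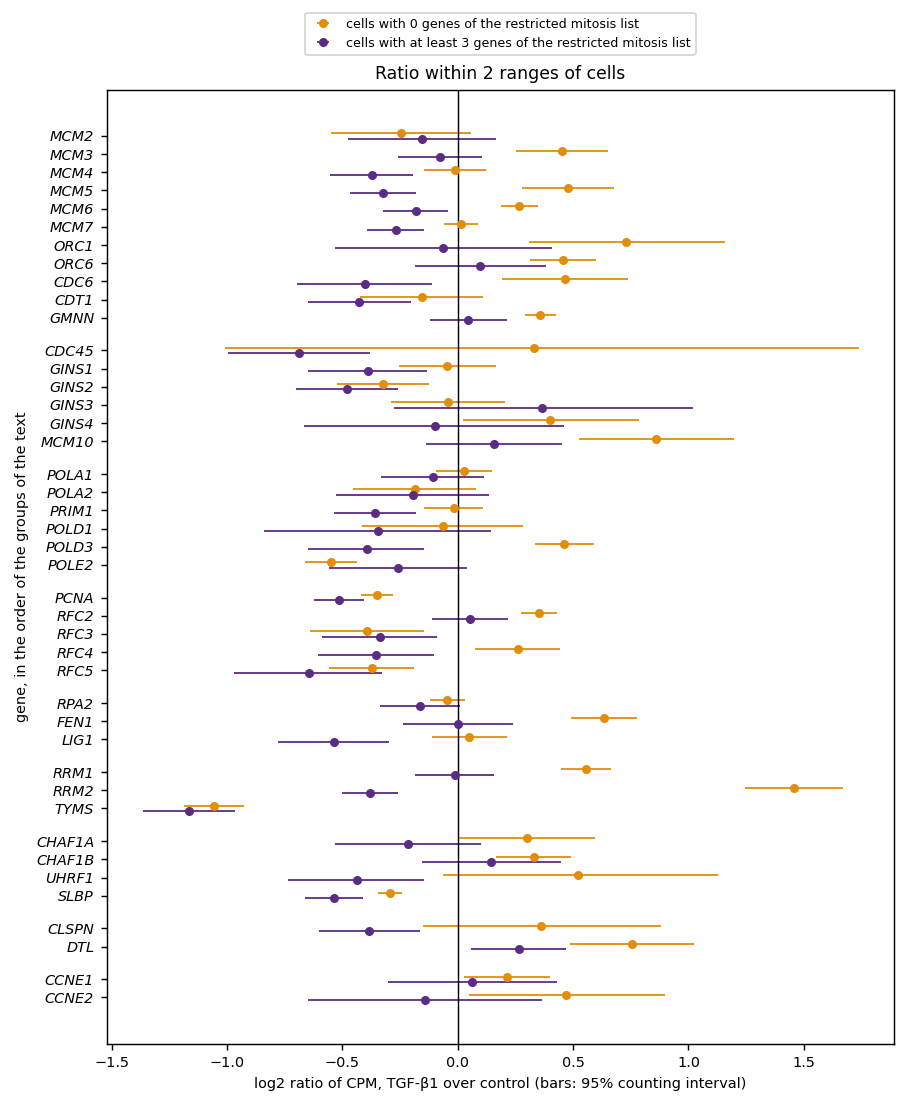
Log2 ratio of CPM (TGF-β1 over control) of each replication gene in cells with 0 (orange) and at least 3 (purple) genes of the restricted mitosis list, with 95% counting intervals. The orange point lies to the right of the purple one for 38 of 42 genes, farthest for RRM2 (1.46 and -0.38), while both points of TYMS lie near -1.1 (-1.06 and -1.16).

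A division that used no mitosis gene was made as well, with the same limit, since the replication genes that ranked the cells also differed between the libraries. For each replication gene, cells were ranked by the summed UMIs of the other replication genes, and cells above the 90th percentile of both libraries pooled were set against the rest. With all genes in the sum the limit was 11 UMIs, and 347 control cells (8.98%, 8.10 to 9.92) and 444 TGF-β1 cells (9.84%, 8.98 to 10.7) lay above it, with 575 and 812 cells within 2 UMIs of it. The median log2 ratio was -0.23 in the rich cells (34 of 42 below 0) and 0.16 in the rest (26 above 0). It was -0.06 and -0.0019 for all genes, of which 42.6% and 49.8% were above 0. For the wider list it was -0.17 and 0.04. In rich cells it was -0.12 without cells above the 98th percentile of UMIs and -0.16 with another seed, and in the rest it was 0.24 with the limit at the 95th percentile. RRM2 was at 69.3 and 59.4 CPM in rich cells (-0.22, -0.33 to -0.12) and at 1.56 and 5.00 CPM in the rest (1.68, 1.49 to 1.88), where 3.29% and 8.70% of thinned cells had an RRM2 UMI. TYMS was at 45.1 and 17.0 CPM in rich cells (-1.41) and at 11.1 and 5.33 CPM in the rest (-1.05).

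The fold between rich cells and the rest shows how far each gene was concentrated in the rich cells. Its median over the 42 genes was 5.13 in control and 3.95 in TGF-β1, and it was larger in control for 39 of 42. By arithmetic it is larger in control wherever the log2 ratio is higher in the rest than in rich cells. The comparison between libraries therefore restates the division above and is no separate result. CDC45 (240-fold and 126-fold), CLSPN (78.4-fold and 41.3-fold), UHRF1 (56.1-fold and 17.1-fold) and RRM2 (44.5-fold and 11.9-fold) were the most concentrated in control. At the other end in control were GINS3 (1.55-fold and 1.64-fold) and POLE2 (1.74-fold and 1.95-fold), and these with MCM2 were the genes whose fold was larger in TGF-β1. CDC45 outside the rich cells stood at 0.0478 CPM in control and 0.0513 CPM in TGF-β1, so its fold rests on few UMIs.

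**Figure D5:**
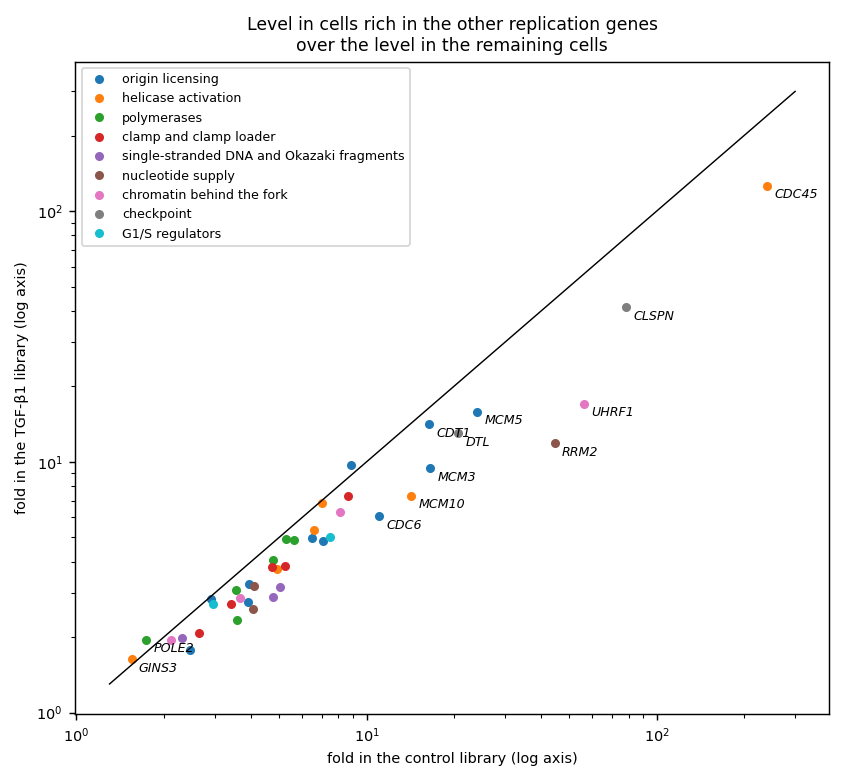
Fold of each replication gene's CPM in cells rich in the other replication genes over the remaining cells, in the control library (horizontal) and the TGF-β1 library (vertical), both on log axes, with the line of equal folds. All but 3 of the 42 points (MCM2, GINS3 and POLE2) lie below the line, with RRM2 (44.5 and 11.9) and UHRF1 (56.1 and 17.1) farthest from it.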

How the data were processed

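Gene-by-cell matrices of UMI counts, deposited by the authors, were read for the control and TGF-β1 libraries. Reads had been aligned and counted by the authors with Cell Ranger (7.1.0 per the labels, 8.0.1 per the matrix header) on EquCab3.0, with barcodes already called as cells. The study's own analysis used Seurat 5 and edgeR 4.2.2. It assigned cells to mares and removed doublets by genotype, which was not repeated here. Doublets were therefore kept, and an alternative left out cells above the 98th percentile of UMIs.

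Counts of kept cells were summed per library and divided by their total (210497250 UMIs in control, 219731144 in TGF-β1) to give CPM. The log2 ratio had no pseudocount, and its 95% interval came from the exact (Clopper-Pearson) binomial share of the UMIs in 1 library. Genes averaging 1 CPM or more over both libraries were counted. No ratio was given where both libraries had at most 3 UMIs or, within the ranges by mitosis genes, where either had. Cells were thinned to 20000 UMIs without replacement before shares, detected genes and ranges were read. With 1 library per group no test was run. The scripts were checked on simulated counts. Python 3.11.15, numpy 2.4.6, scipy 1.17.1, pandas 2.3.3 and matplotlib 3.10.9 were used.

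The genes and lists were chosen with earlier results of these data known. Every replication gene was named or counted in its group. Full values were given for the 5 genes farthest from 0 on either side and the first of each group, and, of the wider list, for the 3 farthest on either side. Genes named by cell range or by fold were chosen after their values were seen, as was the restricted mitosis list. Alternatives changed the cell filters, the scaling, the level minimum, the fold limit, the thinning depth and seed, and the limits of the ranges.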

Additional observations from a re-analysis of the deposited data

Results flagged for a closer look

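The replication genes had opposite median log2 ratios (TGF-β1 over control) in 2 ranges of cells of the same libraries. The median was 0.26 in cells with 0 genes of the restricted mitosis list and -0.26 in cells with at least 3. With another seed for the thinning the former was 0.15. The latter was -0.11 with the mean of per-cell CPM, -0.50 with cells thinned to 10000 UMIs and -0.61 in cells with at least 5 genes. The difference between the ranges was not tested, since each group had 1 library.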

How the results depend on the processing

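No paired analysis was possible because the matrices used here pool the mares of each library with no mark of the mare per cell, and the labels give no shared replicate numbers. The study separated the mares by genotype from the reads, which was not repeated here. An alternative value was called the same if it lay within the counting interval of the main value, or, for a count, within 1.5-fold of it. For a median the interval was the median of its genes' limits. Of the alternative values for medians, counts and shares, 180 stayed within these limits and 27 moved. The limits are wide for medians by range, at -0.54 to -0.02 for cells with at least 3 restricted mitosis genes, so -0.11 there counted as the same. Single genes gave 324 values within the limits and 12 that moved. The sign changed in 10 of 169 values for medians and in 12 of 336 for single genes. The median of all replication genes (-0.02) was 0.07 with per-cell CPM, and 0.02 both without cells above the 98th percentile of UMIs and at 5 CPM. With per-cell CPM, CLSPN (-0.19) was 0.07 and UHRF1 (-0.14) was 0.06. One gene rose past 1.5-fold and 2 fell in the report. The counts were 2 and 1 without cells above the 98th percentile of UMIs, 3 and 1 with the mean of per-cell CPM, 0 and 1 at a minimum of 5 CPM, 0 and 1 at 10 CPM, 9 and 7 at a fold limit of 25% above 1 and 0 and 1 at 2-fold. Of these genes, DTL rose beside MCM10 without cells above the 98th percentile (0.66). No gene rose when the mitosis-gene ranges were given the same shares in both libraries. The shares of all genes past the limit were not counted under these alternatives, so the counts have no background beside them. Nucleotide supply (0.35) was at 0.45, 0.48, 0.24 and -0.34 without cells above the 98th percentile, with per-cell CPM, with the same shares and at 10 CPM. The checkpoint median (0.18) was 0.40 with per-cell CPM, the clamp median (-0.36) was 0.034 at 5 CPM and -0.014 at 10 CPM, and the chromatin median (-0.05) was 0.10 with per-cell CPM, 0.06 without cells above the 98th percentile and -0.31 at 10 CPM. At the higher minimums fewer genes are counted, and at the 98th percentile CDC45 was under 1 CPM. Other causes were not tested. In cells with at least 3 mitosis genes the median was -0.46 when thinned to 10000 UMIs, and with the restricted list -0.61 in cells with at least 5 genes (80 control and 89 TGF-β1 cells) and -0.11 with per-cell CPM. In cells rich in replication genes the median (-0.23) was -0.12 without cells above the 98th percentile. The median for cells with 0 restricted mitosis genes was 0.15 with another seed, and that for cells with 1 to 2 (0.17) was 0.36 with it and 0.31 when the upper range began at 5 genes. Shares of cells rich in replication genes were 4.55% and 5.19% at the 95th percentile and 15.4% and 18.1% at the 80th, in control and TGF-β1. Depth limits genes such as CDC45, GINS4, ORC1 and CCNE2, which had 172 to 312 UMIs per library.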
